A study of Mus musculus with 1699 samples.

Results

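The genes described here were 9 trophic factor receptors and ligands of midbrain neurons, taken by name: the receptor tyrosine kinase Ret, its co-receptors Gfra1 and Gfra2 and their ligand Gdnf, the neurotrophin receptors Ntrk2 (TrkB), Ntrk3 (TrkC) and Ngfr (p75NTR), and the neurotrophins Bdnf and Ntf3 (NT-3). They made up 9 of the 39468 gene entries of each cell, with 1 entry per gene. They were followed by developmental stage, by Pitx3 genotype at E13.5 and P1, and by the level of Th, the rate-limiting enzyme of dopamine synthesis, in the same cell.

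GDNF-family ligands bind a GFRα protein anchored to the cell surface by a lipid, and this pair then engages and activates RET, so that a cell needs RET and a GFRα for the canonical response. Neurotrophins signal through Trk receptor kinases, with BDNF binding TrkB and NT-3 binding mainly TrkC, while p75NTR binds all of them and also their unprocessed forms. GDNF and BDNF are known for promoting survival and neurite growth of midbrain dopamine neurons, and GDNF reaches these neurons largely from their striatal target.

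GFP-positive cells were sorted from dissected mouse ventral midbrain and each cell was sequenced by Smart-seq2, a full-length cDNA method. Pitx3eGFP/wt cells (labelled Pitx3tm1Mli heterozygote) came from embryos of E13.5, E15.5 or E18.5 and from mice of P1, P7 or P90, and Pitx3eGFP/eGFP cells (Pitx3tm1Mli homozygote) from E13.5 and P1. eGFP replaces Pitx3 in this allele, so that the heterozygous controls also carried 1 disrupted copy of Pitx3, a transcription factor of midbrain dopamine neurons, and no group was wild type. Both sexes and several animals were used per stage, but no cell was tied to an animal, and each stage and genotype was therefore 1 sample without a replicate. No test between groups was possible, and all intervals below are exact 95% binomial (Clopper-Pearson) intervals for a share, or Newcombe intervals for a difference of shares, and cover counting error only. Where no cell passed, the limit given is that of 3 cells in the number measured.

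Of 1699 deposited cells, 1489 were kept, 1151 of them heterozygous and 338 homozygous. E18.5, P1 and P90 together gave 780 of the heterozygous cells, E15.5 gave 140 and P7 the fewest, 92, and the number in each group stands in the plot of Ret and its co-receptors. Kept cells had 100007 to 8634201 reads, and the median per group lay between 753256 at E13.5 in homozygotes and 2354720 at E13.5 in heterozygotes. Mean Pitx3 RPKM was 419 and 105.4 in heterozygous cells at E13.5 and P1, and 18.8 and 8.41 in homozygous cells, in the order of the labels. All 4 neuronal markers had a mean over RPKM 10 in every group. At P7 only 48.7% of cells were kept, and the kept P7 cells with little Th still had 7 of 12 oligodendrocyte, 5 of 5 microglial and 6 of 6 vascular markers at a mean over RPKM 10. Embryonic tissue was dissociated with one kit, P1 and P7 tissue with another and P90 tissue with papain, and spike-in RNA was in all cells of E18.5, P90 and the homozygotes, in 94 kept P1 heterozygous cells and in none of E13.5, E15.5 and P7 heterozygotes. Dissociation and stage, and spike-in and stage or genotype, cannot be told apart where they changed together. Plate below means the name under which cells were grouped, such as P1_1. Heterozygous cells of E13.5, E15.5 and P7 had no such name. Whether each name stood for a separate physical plate was not known.

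In the mouse genome (GRCm38, GENCODE vM21) Ret lay on chromosome 6 (118151745 to 118197718, minus strand), Gfra1 on chromosome 19 (58235604 to 58455909, minus), Gfra2 on chromosome 14 (70890120 to 70979838, plus) and Gdnf on chromosome 15 (7810846 to 7837575, plus). Ntrk2 lay on chromosome 13 (58806569 to 59133970, plus), Ntrk3 on chromosome 7 (78175959 to 78738012, minus) and Ngfr on chromosome 11 (95568818 to 95587735, minus). Bdnf lay on chromosome 2 (109674700 to 109727007, plus) and Ntf3 on chromosome 6 (126101412 to 126166910, minus). Antisense genes shared exonic bases with Gfra1 (Gm16277) and with Bdnf (Gm45346), and Smart-seq2 reads carry no strand, so that reads of these pairs cannot be told apart. Reads were summed per gene, and full-length and truncated forms of TrkB and TrkC were not separated.

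Ntf3 had the largest log2 ratio of the members between E13.5 and P90 and between Th levels at E18.5, P1 and P90, and the study designed 3 in situ probes for it. Of these 3 probe targets, 2 lay in the Ntf3 coding sequence, and they are given because Ntf3 carried this contrast. They are written 5′ to 3′ in the sense of the mRNA, with capitals for the bases carried at the 5′ end of the probe. The first target lay at chr6:126102394-126102433 and the second at chr6:126102064-126102103, both on the minus strand of GRCm38.
Ntf3 target 1: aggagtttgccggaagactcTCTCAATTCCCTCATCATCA
Ntf3 target 2: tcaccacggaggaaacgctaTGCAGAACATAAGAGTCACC

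Ret was present in most cells at every stage, and its mean differed by less than 2-fold between stages. Its mean RPKM (reads per kilobase of gene model, scaled to the mapped reads of the cell) in heterozygous cells was 59.6 at E13.5 and 64.9 at E15.5, then 69.2 at E18.5 and 70.8 at P1, with 66.8 at P7 and 91.2 at P90. A cell was counted as expressing a gene when its RPKM was over 10. For Ret this held in 73.4% (65.2 to 80.5) of cells at E13.5 and 76.4% at E15.5, then 90.4% at E18.5 and 83.2% at P1, with 75% at P7 and 94.5% (91.4 to 96.7) at P90. Both the mean and the share of cells were therefore highest at P90, and the interval of the difference covered 0 between E13.5 and E15.5 and between P1 and P7. The SD over cells, 60.5 at E13.5 and 79.4 at P90, was close to the mean at both ages, and cells ranged from 0 to 541 RPKM.

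Gfra1, the co-receptor that prefers GDNF, was the most abundant member per gene length at each stage and was lower with age. Mean RPKM stood at 316.8 at E13.5 and 320.3 at E15.5, then 157.4 at E18.5 and 161.3 at P1, with 138.6 at P7 and 103.3 at P90. The share of cells over RPKM 10 was 92.8% (87.2 to 96.5) at E13.5 and 83.6% at E15.5, then 69.5% at E18.5 and 61.9% at P1, with 61.96% at P7 and 69.5% (64.2 to 74.5) at P90. The largest step lay between E15.5 and E18.5, where the mean was 2-fold lower (log2 ratio −1.02, or −0.75 without plate 18_2 of E18.5) and the share lower by 14.1 points (interval of the difference −22.7 to −4.72). From E18.5 on the means were close to each other, and among the cells over RPKM 10 the median was still lower at P90 (100.3) than at E13.5 (303.1).

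Gfra2, the co-receptor that prefers neurturin, followed another course, with a maximum around birth. Mean RPKM stood at 9.06 at E13.5 and 18.9 at E15.5, then 43.7 at E18.5 and 37.6 at P1, with 28.1 at P7 and 16.7 at P90. Cells over RPKM 10 made up 12.9% (7.86 to 19.7) at E13.5 and 30.7% at E15.5, then 59.4% (51.95 to 66.5) at E18.5 and 53.4% at P1, with 41.3% at P7 and 39.1% (33.7 to 44.6) at P90. Between neighbouring stages the share differed by 17.8 points (8.12 to 27.1) from E13.5 to E15.5 and by 28.6 points (17.9 to 38.4) from E15.5 to E18.5, while that between E18.5 and P1 covered 0 (−15.04 to 3.27). Over this time the means of Gfra1 and Gfra2 thus drew together, from 316.8 against 9.06 at E13.5 to 157.4 against 43.7 at E18.5, and parted again at P90 (103.3 against 16.7).

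Gdnf, the ligand, was practically not detected in the sorted cells. Only 4 of the 1489 kept cells were over RPKM 10, 1 each at E13.5, E18.5 and P90 in heterozygotes and 1 at E13.5 in homozygotes, and the highest value was 31.99. At P1 no heterozygous cell was over RPKM 10, allowing a share of up to 1.12%. The group means lay between 0 and 0.172 RPKM, and Gdnf passed the filter on low values in no comparison.

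**Figure D1:**
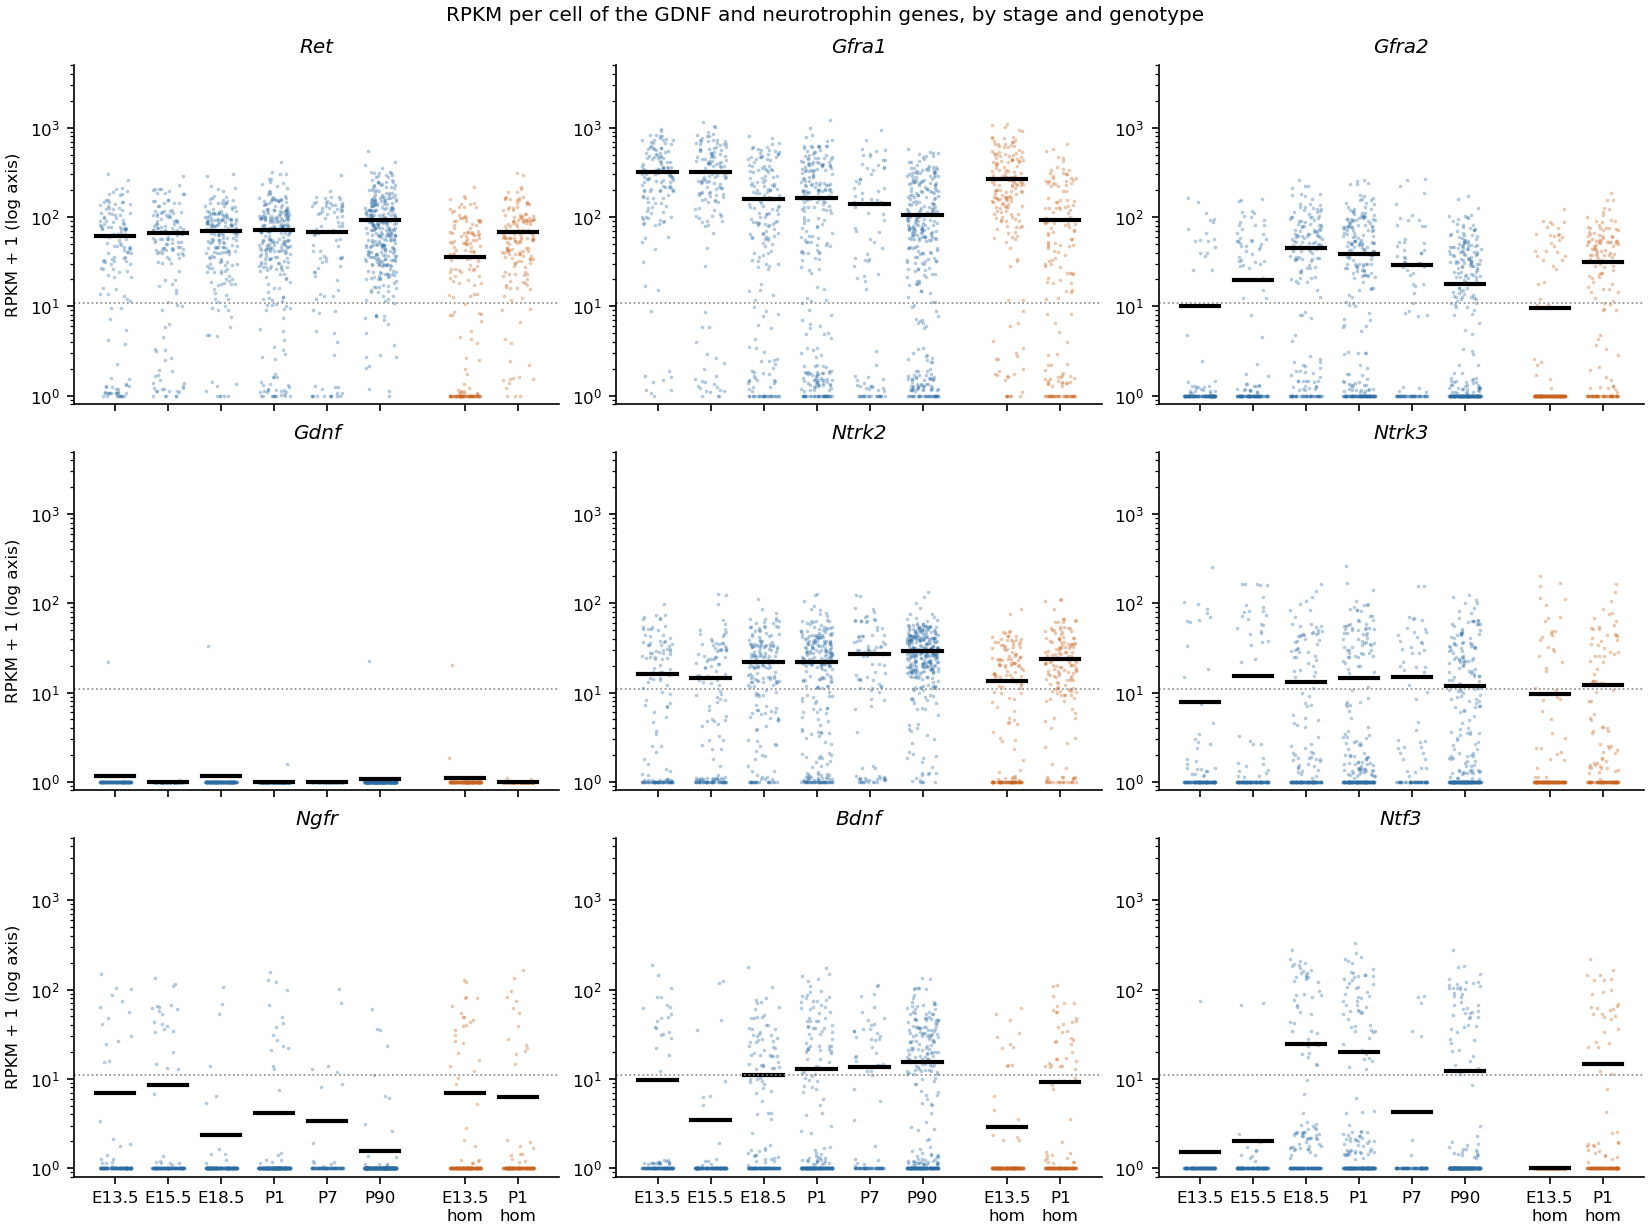
RPKM of each member in each kept cell (points; vertical axis RPKM + 1, logarithmic) by stage for Pitx3eGFP/wt cells (blue) and Pitx3eGFP/eGFP cells (orange, hom), with the mean of the group as a black bar and RPKM 10 as a dotted line. After E15.5 the share of cells over 10 is lower for Gfra1 and higher for Gfra2 than at E15.5, Ntf3 is over 10 in 3 cells before E18.5 and in 43 at E18.5, and Gdnf is over 10 in 4 cells.

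Most cells held the receptor and a co-receptor together at every stage. Ret was over RPKM 10 together with Gfra1 or Gfra2 in 72.7% (64.5 to 79.9) of cells at E13.5 and 98 of 140 cells at E15.5, then 78.1% at E18.5 and 68.3% at P1, with 61.96% (51.2 to 71.9) at P7 and 76.3% (71.3 to 80.8) at P90. The share was lower at P1 than at E18.5, by 9.79 points (−17.7 to −1.45). At P90 it was higher than at P7 by 14.4 points (3.88 to 25.4), while the difference between E13.5 and P90 covered 0 (−4.68 to 12.7). Among cells with Th over RPKM 150 the share was 78.95% at P7 and 79.8% at P90. Among cells with Th of at most RPKM 10 it was 34.5% at P7 and 80.6% at P90. At least 3 non-neuronal markers were held by 22 of the 92 kept P7 cells and by 3 kept P90 cells. The part of such cells in the P7 shares was not tested. At P1 Ret itself was over RPKM 10 in 90.4% of cells with spike-in and 79.3% of those without. At E18.5, where all cells had spike-in, the Ret share was 90.4%. The cells without Ret and a co-receptor together differed more. Cells with Gfra1 or Gfra2 and no Ret made up 22.3% at E13.5 and 3.69% at P90. Those with Ret and neither Gfra1 nor Gfra2 made up 0.719% at E13.5, 12.3% at E18.5 and 18.2% at P90. Cells with all 3 genes made up 9.35% at E13.5, 39.6% at E18.5 and 27.7% at P90. Gfra4, a further co-receptor, was not counted in any of these shares. For Gfra4, RPKM 10 was passed by 92.3% of P90 cells, against 56.7% of E18.5 and 11.5% of E13.5 cells. A cell with Ret and neither Gfra1 nor Gfra2 may therefore still hold a co-receptor. How many such cells held Gfra4 was not counted. At P90 Ret was over RPKM 10 in 94.5% and Gfra4 in 92.3% of all cells, so that most cells held both. The comparison of E13.5 with P90 above therefore holds for Gfra1 and Gfra2 only.

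Within a stage the 2 co-receptors were not seen to exclude each other. Among E18.5 cells with Gfra1, 62.3% (53.4 to 70.6) also had Gfra2, against 52.6% (38.97 to 66.02) of cells without Gfra1, and at P90 the shares were 41.2% (34.7 to 47.9) and 34.3% (25.1 to 44.6). The interval of the difference covered 0 in both cases (−5.38 to 24.6 and −4.78 to 17.6), while at P1 Gfra2 was more frequent in cells with Gfra1 by 16.5 points (4.19 to 28.2). Ret cells held Gfra1 more often than cells without Ret at E13.5, with 98.04% (93.1 to 99.8) against 78.4% (61.8 to 90.2), and at P1, with 66.4% (59.8 to 72.5) against 18 of 45 (25.7% to 55.7%).

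**Figure D2:**
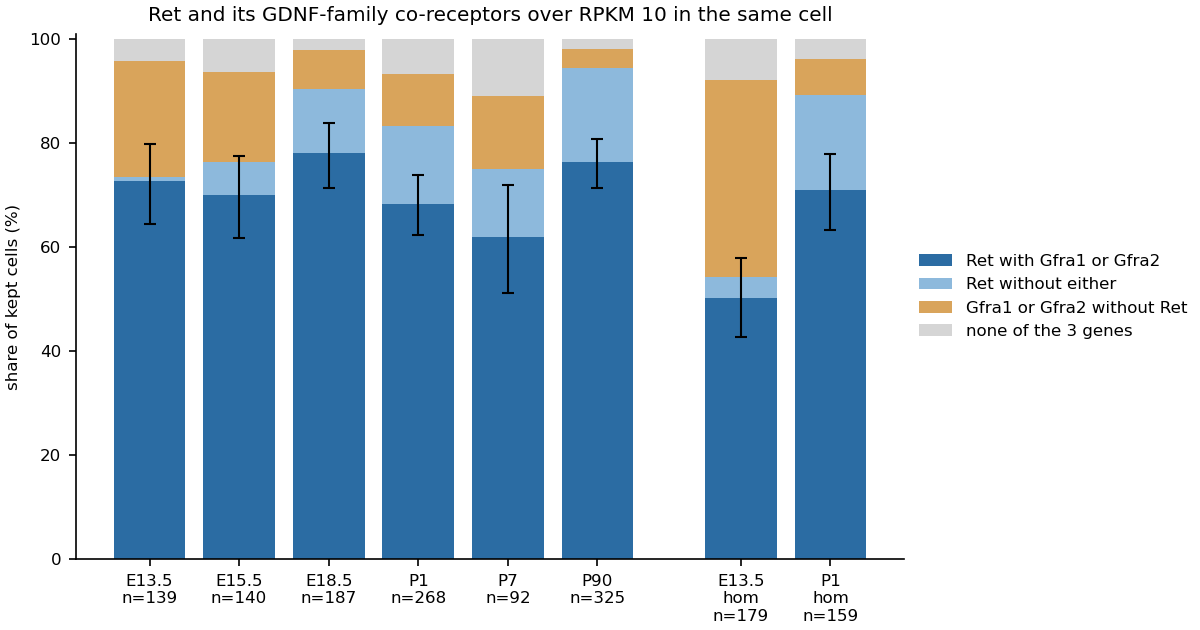
Share of kept cells (per cent, vertical axis) in each group that had Ret with Gfra1 or Gfra2, Ret without either, a co-receptor without Ret, or none of the 3 genes over RPKM 10; the error bar is the exact 95% interval of the lowest segment. Heterozygous groups are on the left and homozygous groups (hom) on the right. The lowest segment is shortest at E13.5 in homozygotes (50.3%), where the segment of co-receptor without Ret is longest (37.99%).

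Ntrk2, the receptor of BDNF, was found in more cells at later stages. Mean RPKM stood at 15.3 at E13.5 and 13.5 at E15.5, then 21.1 at E18.5 and 21.3 at P1, with 25.9 at P7 and 28.5 at P90. Cells over RPKM 10 made up 43.2% (34.8 to 51.8) at E13.5 and 39.3% at E15.5, then 66.3% at E18.5 and 60.8% at P1, with 63.04% at P7 and 86.5% (82.3 to 90.0) at P90. The share stood at 3 levels, the first shared by E13.5 and E15.5, the second by E18.5, P1 and P7, and the highest at P90, and the interval of the difference between neighbouring stages covered 0 within a level and not between levels. From E13.5 to P90 it differed by 43.3 points (34.01 to 51.9), the widest difference of any member over this span. Among cells over RPKM 10 the median was 29.4 at E13.5 and 28.7 at P90, so that the share of cells differed between these ages while the level within them was nearly the same.

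Ntrk3, the receptor of NT-3, was limited to a minority of cells. Mean RPKM stood at 6.89 at E13.5 and 14.4 at E15.5, then 12.2 at E18.5 and 13.5 at P1, with 13.8 at P7 and 10.8 at P90. It was over RPKM 10 in 8.63% (4.54 to 14.6) of cells at E13.5 and 17.9% at E15.5, then 25.1% at E18.5 and 25.4% at P1, with 29.3% at P7 and 26.2% (21.5 to 31.3) at P90. From E15.5 on the interval of the difference between neighbouring stages covered 0. Ntrk3 and Ntrk2 were not seen to exclude each other in heterozygotes after birth: at P90 Ntrk2 was over RPKM 10 in 89.4% (80.8 to 95.04) of Ntrk3 cells and in 85.4% (80.3 to 89.6) of the other cells. Ntrk2 was less frequent in Ntrk3 cells at E15.5, by 23.5 points (−37.9 to −2.46), and in P1 homozygotes, by 18.65 points (−35.5 to −1.72).

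Ngfr, which encodes p75NTR, was the least frequent receptor in heterozygotes from E15.5 on and had its highest means before E18.5. Mean RPKM stood at 5.96 at E13.5 and 7.62 at E15.5, then 1.34 at E18.5 and 3.16 at P1, with 2.41 at P7 and 0.543 at P90. The share over RPKM 10 was 10.1% (5.62 to 16.3) at E13.5 and 14.3% (8.95 to 21.2) at E15.5, then 2.14% (0.586 to 5.39) at E18.5 and 5.60% at P1, with 5.43% at P7 and 1.54% (0.501 to 3.55) at P90. Between E15.5 and E18.5 it was lower by 12.2 points (−19.0 to −6.32). At P90 the value rested on 5 cells.

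Bdnf, the ligand of TrkB, was found in a minority of cells at each stage. Mean RPKM stood at 8.79 at E13.5 and 2.46 at E15.5, then 9.97 at E18.5 and 11.9 at P1, with 12.6 at P7 and 14.4 at P90. Cells over RPKM 10 made up 15.1% (9.60 to 22.2) at E13.5 and 2.86% (0.784 to 7.15) at E15.5, then 26.7% at E18.5 and 23.1% at P1, with 33.7% at P7 and 39.4% (34.04 to 44.9) at P90. E15.5 was thus lower than both of its neighbours, by 12.3 points (−19.4 to −5.68) against E13.5 and by 23.9 points (16.7 to 30.9) against E18.5. Immediate early genes, which also differ with dissociation, had a median summed RPKM of 365.5 in P90 cells with Bdnf and 493.5 in P90 cells without it. At E13.5 Fos was over RPKM 10 in 57.1% of Bdnf cells and 29.7% of other cells. The part of this difference in the Bdnf values was not tested.

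Ntf3, the ligand of TrkC, was rare before E18.5. It was over RPKM 10 in 1 cell at E13.5 and 2 at E15.5, then in 22.99% (17.2 to 29.7) at E18.5 and 20.1% (15.5 to 25.5) at P1, with 5.43% (1.79 to 12.2) at P7 and 15.1% (11.4 to 19.4) at P90. The mean RPKM was 0.531, 1.01, 23.4, 18.8, 3.23 and 11.4 in that order of stages, and single cells reached 277.4 at E18.5 and 334.8 at P1. Where it was over 10 it was high, with a median of 86.4 RPKM at E18.5 and 61.3 at P90. P7 was lower than P1 and P90, but the P1 cells differed among themselves: Ntf3 was over RPKM 10 in 36.2% (26.5 to 46.7) of the 94 P1 cells with spike-in, all from plate P1_1, and in 11.5% (7.16 to 17.2) of the P1 cells without. P7 cells had no spike-in, and the interval of the difference to the P1 cells without it covered 0 (−12.45 to 1.68). Spike-in also changed with stage between E15.5, which had none, and E18.5, and between P7 and P90. At these steps its part in the Ntf3 values cannot be told apart from that of stage.

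Around birth, Ntf3 was more frequent in cells with Bdnf than in cells without it. Both genes also went with Th at these stages. At E18.5 Th was over RPKM 150 in 92% of Bdnf cells and 67.9% of the others. For Ntf3 these shares were 100% and 66.7%. The part of Th, or of spike-in and plate at P1, in the pairing of Bdnf and Ntf3 was not tested. At E18.5 Ntf3 was over RPKM 10 in 46% (31.8 to 60.7) of Bdnf cells and in 14.6% (9.15 to 21.6) of the others. At P1 the shares were 43.55% (30.99 to 56.7) and 13.1% (8.82 to 18.5), and at P90 19.5% (13.1 to 27.5) and 12.2% (7.96 to 17.6), where the interval of the difference covered 0 (−0.613 to 15.97). Ligand and receptor pairs in 1 cell were less clear: at P90 Ntf3 was over RPKM 10 in 28.2% (19 to 39.04) of Ntrk3 cells and 10.4% (6.86 to 14.99) of the others, but at P1 in 17.6% (9.46 to 28.8) and 21% (15.6 to 27.3). Bdnf was over RPKM 10 in 41.6% (35.8 to 47.6) of P90 cells with Ntrk2 and 25% (13.2 to 40.3) of those without, a difference of 16.6 points (1.14 to 28.6).

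Between E13.5 and P90, 8 members passed the filter of a mean RPKM of at least 1 in either group, and 1 was at least 2-fold higher at P90 and 2 were lower, while 21% and 19.7% of the 15518 entries tested passed the same limits. The member that was higher was Ntf3 (log2 ratio of mean RPKM + 1 of 3.02) and those that were lower were Gfra1 (−1.61) and Ngfr (−2.17). Ratios of the others were 0.61 for Ret, 0.81 for Gfra2, 0.86 for Ntrk2, 0.58 for Ntrk3 and 0.65 for Bdnf. The median ratio was 0.63 over the members and −0.07 over all entries tested. By the mean of log2 values over cells, which gives more weight to the share of cells that express a gene, 6 members were past 2-fold, with Ret, Gfra2, Ntrk2, Ntrk3 and Bdnf joining Gfra1, while Ntf3 (0.89) and Ngfr (−0.50) no longer passed.

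By single steps, most of the members past 2-fold fell between E15.5 and E18.5. From E13.5 to E15.5 only Bdnf passed, with a log2 ratio of −1.50 and 0 members higher, against 7.25% of entries higher and 7.21% lower. From E15.5 to E18.5, 3 members were higher (Gfra2 1.17, Bdnf 1.67, Ntf3 3.60) and 2 lower (Gfra1 −1.02, Ngfr −1.88), of 8 tested, against 11.7% and 5.05% of all entries. Without plate 18_2 Gfra1 did not pass (−0.75), and without plate 18_1 the ratio of Ngfr was −2.47. No member passed between E18.5 and P1, where 4.93% of entries were higher and 0.829% lower. Without plate P1_1, however, Ntf3 was lower at P1 (−1.10), and Ngfr was higher without plate 18_1 (1.42) and without the P1 cells of no named plate (1.35). From P1 to P7 only Ntf3 was lower (−2.23), against 2.41% of entries lower and 6.21% higher, with ratios of −1.43 without plate P1_1 and −3.06 against that plate alone. From P7 to P90, Ntf3 was higher (1.55) and Ngfr lower (−1.15), against 8.98% and 18.8%.

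The next comparison asked how the members differed between cells with much and with little Th at the same stage. Cells were divided into Th RPKM over 150 (Th-high), 10 to 150 and at most 10 (Th-low). Th-low cells numbered 43 at E13.5, 30 at E15.5 and 37 at E18.5, and 58 at P1, 29 at P7 and 98 at P90 in heterozygotes, and 85 at E13.5 and 49 at P1 in homozygotes, and there were at least 57 Th-high cells in each group. Ret was the member with a higher share and mean in Th-high cells in every group. At E15.5 its means, 72.4 and 42.3 RPKM, differed by less than 2-fold. Ret was over RPKM 10 in 83.3% (74 to 90.4) of Th-high and 51.2% (35.5 to 66.7) of Th-low cells at E13.5, in 93.7% and 58.6% at P1, and in 92.98% and 37.9% at P7. At P90 the shares were 98.9% and 91.8%, and the difference was 7.04 points (2.14 to 14.2), against 32.2 points (15.3 to 47.9) at E13.5. The level still differed at P90, with a mean of 126.7 RPKM in Th-high and 48.2 in Th-low cells, so that nearly all P90 cells with little Th had Ret, at a lower level.

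Gfra1 also was higher in Th-high cells. Its mean RPKM in Th-high and Th-low cells was 364.3 and 207.7 at E13.5, 189.1 and 64.9 at E18.5, 203.6 and 85.3 at P1, 176.5 and 87.7 at P7 and 139.3 and 65.2 at P90. The plates of E18.5 differed, with 229.6 and 33.4 on 18_1 and 145.5 and 81.95 on 18_2, under 2-fold. The share of cells over RPKM 10 differed by 26.9 points (9.59 to 43.4) at E18.5 and 27.7 points (13.2 to 41.3) at P1. At P90 it was 70.2% in Th-high and 78.6% in Th-low cells, so that the higher mean of Th-high cells came with no higher share. Gfra2 turned in share between ages: its share differed by 26.1 points (11.3 to 39.2) towards Th-high cells at P1 and by −14.7 points (−26.5 to −2.63) at P90, with 34.3% of Th-high and 48.98% of Th-low cells. The P90 gap was widest on plate P90_4, with 18.4% and 57.1%. It was smaller in the same direction on P90_1 (39.7% and 52.4%), P90_2 (44.6% and 55%) and P90_5 (19.05% and 27.3%). The P90 means of Gfra2, 16.3 and 18.4 RPKM, were close.

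In heterozygotes Ntf3 was found mostly in Th-high cells. At E18.5 it was over RPKM 10 in 30.9% (23.4 to 39.3) of Th-high cells and in 0 of 37 Th-low cells, which allows a share of up to 8.11%. At P1 the shares were 28% and 1.72%, and at P90 25.8% (19.6 to 32.9) and 3.06% (0.636 to 8.69). All 43 Ntf3 cells at E18.5 were Th-high, with a median Th of 2971 RPKM against 1384 in the other cells. In P1 homozygotes the shares were 23.9% and 12.2%, the interval of the difference covered 0 (−2.63 to 23.45), and 70% of the 30 Ntf3 cells were Th-high. Bdnf went with Th from E18.5 to P7, in 33.1% and 10.8% of Th-high and Th-low cells at E18.5 (difference 22.3 points, 6.6 to 32.8) and 28.6% and 10.3% at P1. At P7 the shares were 42.1% and 20.7% (21.4 points, 0.077 to 38.3), and at P90 40.4% and 42.9%.

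The Trk receptors did not follow Th. Ntrk2 had a mean RPKM of 12.3 in Th-high and 22.1 in Th-low cells at E13.5, 21 and 23.4 at P1, and 30.5 and 26.9 at P90, and the interval of the difference in shares covered 0 in each group. Ntrk3 was over 2-fold higher in Th-high cells at E13.5 (8.26 against 3.50) and not at later stages. Ngfr was higher in Th-high cells at E15.5 (9.67 against 2.68), at E18.5 (1.71 against 0.348) and in E13.5 homozygotes (11.2 against 2.40), and lower at P1 (1.41 against 5.82).

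At E13.5, 3 of 7 members tested were at least 2-fold higher in Th-high cells (log2 ratios of Ret 1.24, Gfra2 1.86 and Ntrk3 1.04) and 0 lower, against 12.9% of entries higher and 8.8% lower. At P1, Ret (1.15), Gfra1 (1.25) and Ntf3 (3.94) were higher and Ngfr (−1.50) lower, of 8, against 6.38% and 9.74%. At P90, Ret (1.38), Gfra1 (1.08) and Ntf3 (3.19) were higher, of 7, against 3.86% higher and 3.44% lower. In the stages between, 3 members were higher at E15.5 (background 15.8%), 5 at E18.5 (9.16%) and 5 at P7 (11.1%), and 0 lower (9.84%, 7.48% and 19.2%). Those at E15.5 were Gfra2 (1.47), Ngfr (1.54) and Ntf3 (1.155, on means of 1.36 and 0.059 RPKM). Ret (0.76) and Gfra1 (0.91) did not pass at E15.5. Those at P7 were Ret (1.47), Gfra1 (1.0, at the limit), Gfra2 (1.24), Bdnf (1.09) and Ntf3, the last with 5 cells over RPKM 10. At E18.5 Ret and Ntf3 passed without either plate, while Gfra1 (0.82) and Ngfr (0.84) did not without 18_1, nor Ngfr (0.84) and Bdnf (0.97) without 18_2, and Gfra2 passed without 18_1 (1.06). In homozygotes, Ret (1.35), Gfra1 (1.18) and Ngfr (1.85) were higher at E13.5, of 7, against 7.78% higher and 7.05% lower, and Ret (1.08) and Bdnf (1.57) at P1, of 8, against 7.45% and 9.77%. In homozygotes Ret did not pass without plate 13H_6 at E13.5 (0.94; 2.21 without 13H_4) or without plate P1H_2 at P1 (0.72), where Bdnf had 2.25 and Ntf3 passed (4.54). Ntf3 was listed at 0 in Th-low cells of P7, so that no fold was given there. At P7 the summed oligodendrocyte markers had a mean of 2988 RPKM in Th-low and 61.9 in Th-high cells, and the summed microglial markers at P1 333.4 and 82.8, with a median of 0 in both; their part in the Th differences at P7 was not tested. At P1 the same 4 members passed without the cells that held at least 3 non-neuronal markers, and 2 of them, Gfra1 and Ntf3, without plate P1_1, where Ret had a log2 ratio of 0.98 and Ngfr of −0.57. Ngfr at P1 also fell short by the mean of log2 values (−0.31) and with a single limit at Th RPKM 50 (−0.75). At E13.5 Ntrk3 did not pass with detection counted over all entries (0.54), with pooled CPM (0.91), by the mean of log2 values (0.20) or with the limit of Th RPKM 50 (0.67), and Gfra2 did not by the mean of log2 values (0.81). At P90 Gfra1 did not pass without plate P90_2 (0.99), by the mean of log2 values (0.32) or with the limit of Th RPKM 50 (0.84).

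**Figure D3:**
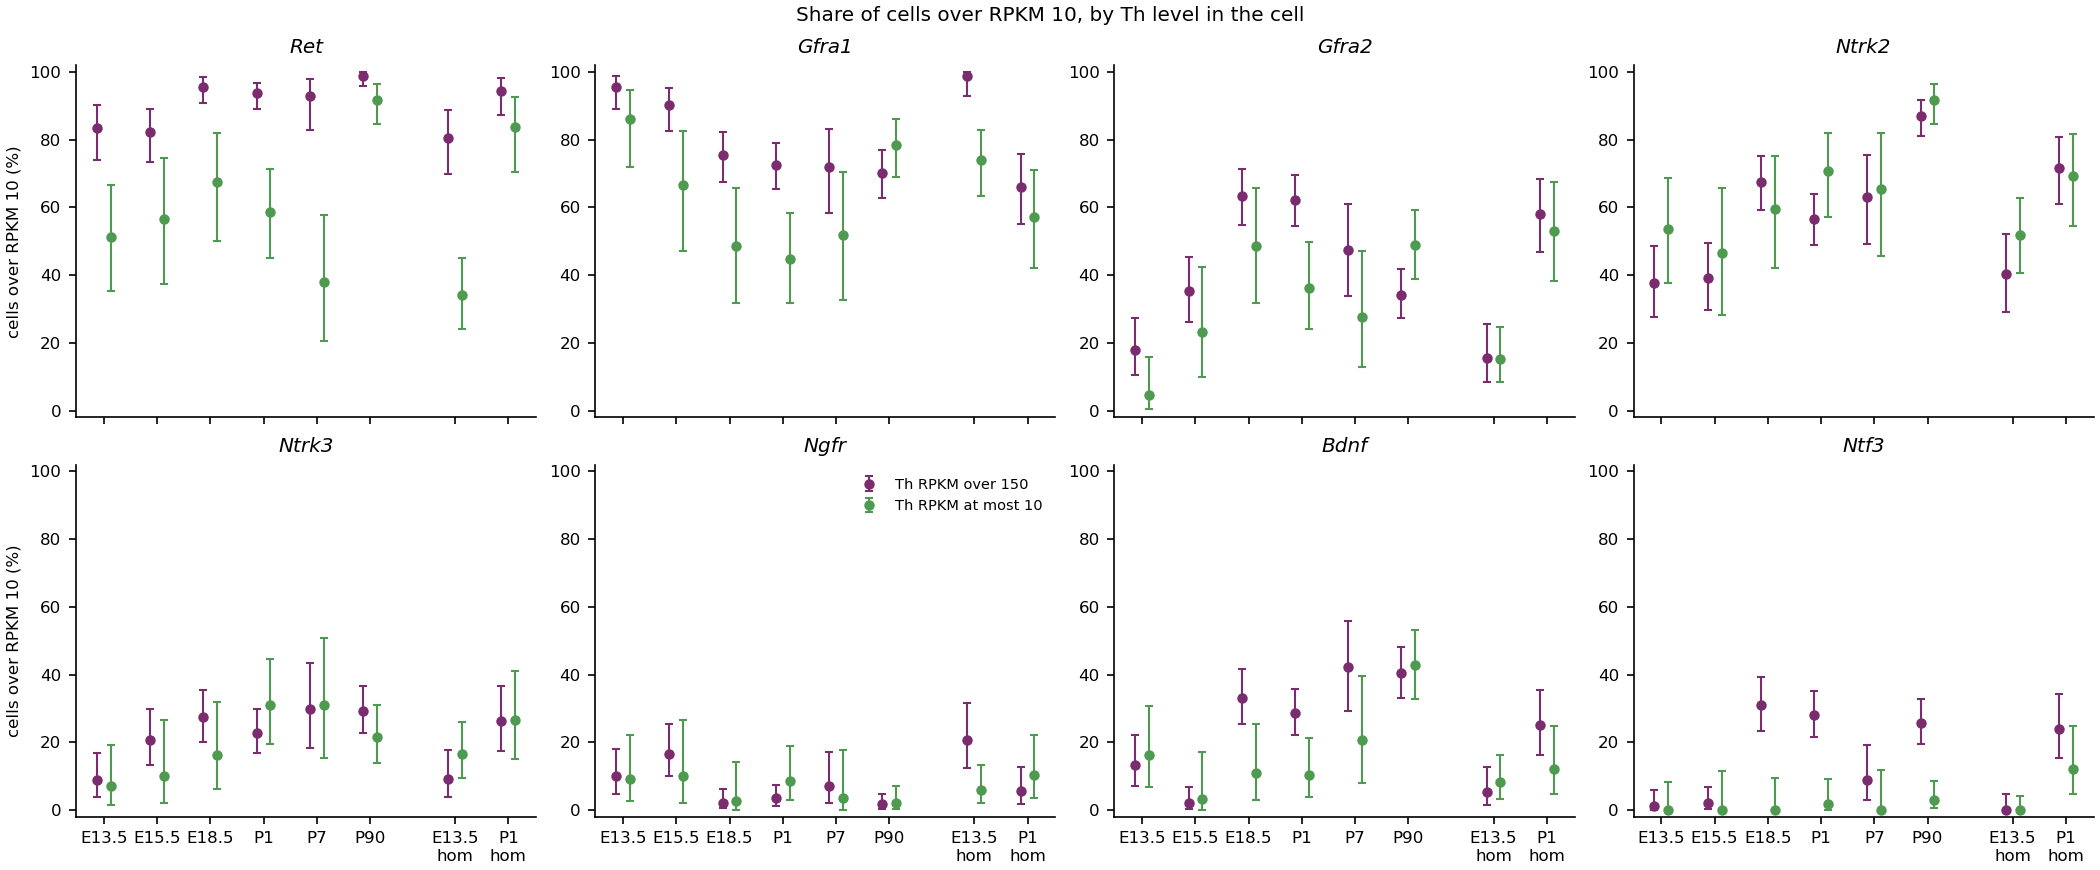
Share of cells over RPKM 10 (per cent, vertical axis) for 8 members in cells with Th RPKM over 150 (purple) and at most 10 (green), by group, with exact 95% intervals; hom marks Pitx3eGFP/eGFP cells. The purple points of Ret lie above the green ones in all 8 groups and come close at P90, and the green points of Ntf3 stay at or below 3.06% in heterozygotes and reach 12.2% in P1 homozygotes.

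At E13.5 the genotype comparison asked what differed when both copies of Pitx3 were disrupted. Ret had a mean RPKM of 34.7 in homozygous and 59.6 in heterozygous cells, and was over RPKM 10 in 54.2% (46.6 to 61.6) and 73.4% (65.2 to 80.5), a difference of −19.2 points (−29.1 to −8.54). Bdnf had a mean of 1.90 and 8.79 and a share of 6.15% and 15.1%, a difference of −8.96 points (−16.4 to −2.21). For the other members tested the interval of the difference in shares covered 0: Gfra1 had a mean of 264.3 in homozygotes and 316.8 in heterozygotes, Gfra2 8.45 and 9.06, Ntrk2 12.3 and 15.3, Ntrk3 8.64 and 6.89, and Ngfr 5.97 and 5.96. Ntf3 was listed at 0 in every homozygous cell, which allows a share of up to 1.68%, and was over RPKM 10 in 1 heterozygous cell.

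By the 2-fold limit 1 of 7 members was lower in homozygotes, Bdnf (log2 ratio −1.76), and 0 higher, against 4.61% of entries lower and 4.41% higher; Ret reached −0.76. By the mean of log2 values over cells the 1 member past 2-fold was Ret and not Bdnf. Ret with Gfra1 or Gfra2 was found in 50.3% (42.7 to 57.8) of homozygous and 72.7% (64.5 to 79.9) of heterozygous cells, a difference of −22.4 points (−32.3 to −11.6). Th-low cells made up 47.5% of homozygous and 30.9% of heterozygous cells, so that a Th level need not hold like cells in both genotypes. A difference between Th levels in the genotype contrast was not tested. Among Th-high cells Ret was over RPKM 10 in 80.5% of homozygous and 83.3% of heterozygous cells (−2.81 points, −14.8 to 8.80), with means of 53.7 and 74.7. Among Th-low cells the shares were 34.1% and 51.2% (−17.05 points, −33.98 to 0.826) and the means 20.4 and 30.96. The homozygous plates differed, with a Th-low mean of 29.6 on 13H_4, 14.9 on 13H_5 and 11.9 on 13H_6, and without 13H_4 the mean was 12.6 and Ret past 2-fold (−1.23). Between Th RPKM 10 and 150, with 17 and 6 cells, they were 35.3% and 83.3% (−48.04 points, −70.6 to −1.97). The mean of Bdnf was lower among Th-high and among Th-low cells, with values of 2.19 against 7.47 among Th-high cells, where it was the 1 of 7 members past 2-fold (log2 ratio −1.41, against 7.32% of entries higher and 8.03% lower), and of 2.01 against 12.04 among Th-low cells. These means rested on 4 and 12 Th-high and on 7 and 7 Th-low cells over RPKM 10, and the interval of the difference in shares covered 0 at both levels (−17.2 to 1.12 and −22.4 to 3.25). Among Th-high cells Bdnf did not pass without plate 13H_6 (−0.96). In Th-low cells 3 of 7 members were past 2-fold, with Gfra2 (1.06) and Ntrk3 (1.37) higher and Bdnf (−2.11) lower, against 12.3% of entries higher and 9.12% lower. Gfra2 was over RPKM 10 in 13 of 85 homozygous and 2 of 43 heterozygous cells and Ntrk3 in 14 and 3, the intervals of the difference in shares covered 0 (−1.78 to 20.4 and −3.78 to 19.9), and Gfra2 did not pass without plate 13H_4 (0.75). All E13.5 homozygous cells and no E13.5 heterozygous cell had spike-in, and median reads were 753256 and 2354720. The shares of both genes were nearly the same when each cell was thinned to 100000 reads: Ret 53.6% and 72.7%, Bdnf 6.15% and 15.1%.

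At P1 no member passed 2-fold between genotypes, of 8 tested, against 3.88% of entries higher and 3.45% lower. Ret had a mean RPKM of 66.4 in homozygous and 70.8 in heterozygous cells and a share of 89.3% (83.4 to 93.7) and 83.2% (78.2 to 87.5). Gfra1 came closest, with 91.9 and 161.3 (log2 ratio −0.81) and nearly the same share of cells, 62.3% and 61.9%, and the interval of the difference in shares covered 0 (−9.23 to 9.63). Without the homozygous plate P1H_1 the log2 ratio was −1.10, past 2-fold. The plates of the homozygotes had Gfra1 means of 110.2 and 74.6, and the spike-in and other cells of the heterozygotes 142.3 and 171.6. Gfra2 had 30.2 and 37.6, Ntrk2 22.9 and 21.3, Ntrk3 11.3 and 13.5, Ngfr 5.25 and 3.16 and Bdnf 8.10 and 11.9. The interval of the difference in Ret shares covered 0 (−0.915 to 12.4); the difference between the ages was not tested.

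Ntf3 at P1 depended on which heterozygous cells were used. Over all cells its mean RPKM was 13.7 in homozygotes and 18.8 in heterozygotes, with shares of 18.9% (13.1 to 25.8) and 20.1% (15.5 to 25.5). With spike-in cells only, 1 member was at least 2-fold lower and 0 higher, against 2.35% and 8.24% of entries. This was Ntf3, with 13.7 and 34.3 RPKM (log2 ratio −1.27) and 18.9% and 36.2% of cells (−17.3 points, −28.7 to −6.04). The heterozygous cells without spike-in had 10.4 RPKM and 11.5%, on the other side of the homozygotes. Within heterozygotes the gap between cells with and without spike-in (24.7 points, 14.1 to 35.5) was wider than that between genotypes, and spike-in and plate cannot be told apart there.

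By Th level, P1 Th-low cells differed between genotypes for Ret and Ntf3. Th-low cells made up 30.8% of homozygous and 21.6% of heterozygous cells at P1. Median Th in Ret cells was 311.3 and 1368 RPKM, so that a Th level need not hold like cells in both genotypes. Ret was over RPKM 10 in 83.7% (70.3 to 92.7) of homozygous and 58.6% (44.9 to 71.4) of heterozygous Th-low cells, a difference of 25.1 points (7.74 to 40.1), with nearly equal means of 39.8 and 38.3. All homozygous cells had spike-in, and against the 14 heterozygous Th-low cells with spike-in the difference was 19.4 points and covered 0 (−3.78 to 46.1), with means of 39.8 and 24.4. Over all P1 heterozygous cells Ret was more frequent with spike-in than without, by 11.1 points (1.79 to 19.1). Ntf3 was over RPKM 10 in 6 of 49 homozygous and 1 of 58 heterozygous Th-low cells, with means of 9.85 and 0.837, the 1 member of 8 at least 2-fold higher, against 9.21% of entries higher and 12.1% lower. All 6 homozygous cells were among the 27 of plate P1H_2, with a mean of 17.9, and the 22 of plate P1H_1 had 0 such cells and a mean of 0.0425, below the heterozygous mean, so that without P1H_2 the log2 ratio was −0.82 in place of 2.56, and it was 1.35 against the heterozygous cells of plate P1_1. Microglial markers had a mean summed RPKM of 692 in homozygous and 333.4 in heterozygous Th-low cells, with medians of 0, and their part was not tested. Among Th-high cells Ngfr was 2-fold higher in homozygotes (4.51 against 1.41), the 1 member past the limit, against 4.08% of entries higher and 4.85% lower. This rested on 5 and 6 cells over RPKM 10, and the interval of the difference in shares covered 0 (−2.77 to 9.43), and Ngfr did not pass without the heterozygous plate P1_1 (0.84). With spike-in cells only, Ngfr (log2 ratio 2.06) was past the limit upwards and Ntf3 (−1.31) downwards among Th-high cells, against 8.01% of entries higher and 3.97% lower. Ntrk2 was over RPKM 10 in 71.6% of homozygous and 56.6% of heterozygous Th-high cells (15.0 points, 2.60 to 26.2).

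**Figure D4:**
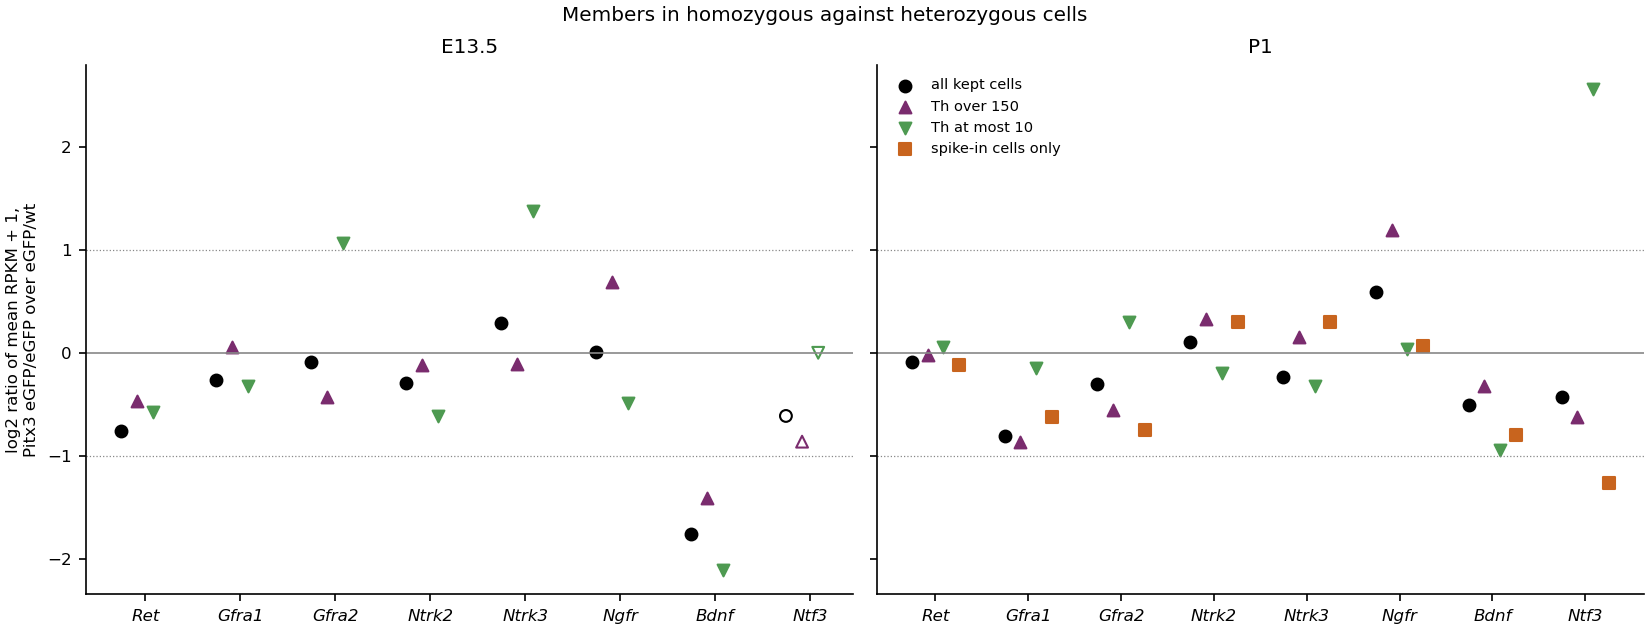
Log2 ratio of mean RPKM + 1 in Pitx3eGFP/eGFP over Pitx3eGFP/wt cells at E13.5 (left) and P1 (right) for 8 members, over all kept cells (black circles), cells with Th over 150 (purple) or at most 10 (green) and, at P1, cells with spike-in (orange squares); dotted lines mark 2-fold and open symbols a mean under RPKM 1 in both groups. Bdnf lies below −1 at E13.5 in all 3 divisions, and Ntf3 at P1 lies at −1.27 in spike-in cells and at 2.56 in Th-low cells.

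Cells were also compared by the 5 genes that the study used beside Th to name its lineages, without assigning a lineage: Slc6a3 (the dopamine transporter, Dat), Aldh1a1, Vip, Nxph4 and Gad2, each at RPKM over 150 or not. Ntf3 went with Slc6a3. It was over RPKM 10 in 45% (33.9 to 56.5) of the 80 Slc6a3-high cells and 6.54% (2.67 to 13.02) of the other cells at E18.5, in 44 of 110 cells (30.8% to 49.8%) and 6.33% (3.08 to 11.3) at P1, and in 50.7% (38.6 to 62.8) and 5.12% (2.75 to 8.59) at P90. The intervals did not overlap at any of these stages. In P1 homozygotes, of which 16 cells were Slc6a3-high, the shares were 8 of 16 (24.6% to 75.3%) and 15.4% (9.90 to 22.4). At P90 Gfra1 had a mean of 241.4 RPKM in Slc6a3-high and 64.7 in other cells, and Ret, found in nearly all cells of both kinds, a share of 97.2% and 93.7%.

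Gfra1 was also higher in cells with Aldh1a1, an enzyme of retinoic acid synthesis found in a ventral group of dopamine neurons. Its mean RPKM in Aldh1a1-high and other cells was 299.5 and 85.2 at E18.5, 296.9 and 86.9 at P1, and 232.1 and 72.96 at P90, and 196.8 and 66.5 in P1 homozygotes. The share at P1 was 89.5% (81.5 to 94.8) and 46.8% (39.2 to 54.5). Ntf3 was not higher in Aldh1a1-high cells at E18.5 and P1 (17.5% and 25.8% at E18.5) but was at P90, with 37.1% (25.2 to 50.3) and 9.89% (6.56 to 14.2). Bdnf was found in 25.8% (15.5 to 38.5) of Aldh1a1-high and 42.6% (36.5 to 48.8) of other cells at P90, a difference of −16.8 points (−27.8 to −3.37).

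Vip-high cells, named for the neuropeptide VIP, were few but differed in the neurotrophin genes. At P1, with 24 such cells, Ntrk2 was over RPKM 10 in 20.8% (7.13 to 42.1) against 64.8% (58.4 to 70.7) of other cells, and Bdnf in 54.2% (32.8 to 74.5) against 20.1% (15.2 to 25.7). At P90, Bdnf was over RPKM 10 in 9 of the 10 Vip-high cells (55.5% to 99.8%) and in 37.8% of the others, whereas Ntrk2 was found in 7 of 10 (34.8% to 93.3%) and 86.98%. At E18.5, with 18 Vip-high cells, Bdnf did not differ in this direction (16.7% against 27.8%). Ret was over RPKM 10 in 23 of the 24 Vip-high cells at P1.

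Heterozygous cells high in Nxph4, a neurexin ligand, or in Gad2, a GABA synthesis enzyme, seldom held Ntf3. In Nxph4-high cells Ntf3 was over RPKM 10 in 0 of 18 at E18.5 (which allows up to 16.7%), 0 of 42 at P1 (up to 7.14%) and 2.35% (0.645 to 5.92) of 170 at P90, against 25.4%, 23.9% and 29.03% of other cells. Ntf3 was over RPKM 10 in 1 of 25 Gad2-high cells at E18.5, 3 of 37 at P1 and 2 of 81 at P90, against 25.9%, 22.1% and 19.3%, and at P1 the interval of the difference covered 0 (−21.8 to 0.0921). Bdnf was found in 23.5% (14.8 to 34.2) of Gad2-high and 44.7% (38.3 to 51.1) of other cells at P90, whereas Nxph4-high and other cells had the same share there (39.4% and 39.4%). Gfra2 divided these cells at P90: it was over RPKM 10 in 14.8% (7.90 to 24.4) of Gad2-high cells and 47.1% (40.7 to 53.6) of the others, and in 48.8% (41.1 to 56.6) of Nxph4-high cells and 28.4% (21.4 to 36.2) of the others. In P1 homozygotes Ntf3 was over RPKM 10 in 35.5% (19.2 to 54.6) of 31 Gad2-high cells, against 8.11% (1.70 to 21.9) of 37 in P1 heterozygotes, a difference of 27.4 points (7.87 to 45.7). Against the heterozygous Gad2-high cells with spike-in, of which 3 of 12 held Ntf3, the difference was 10.5 points and covered 0 (−21.2 to 34.3).

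**Figure D5:**
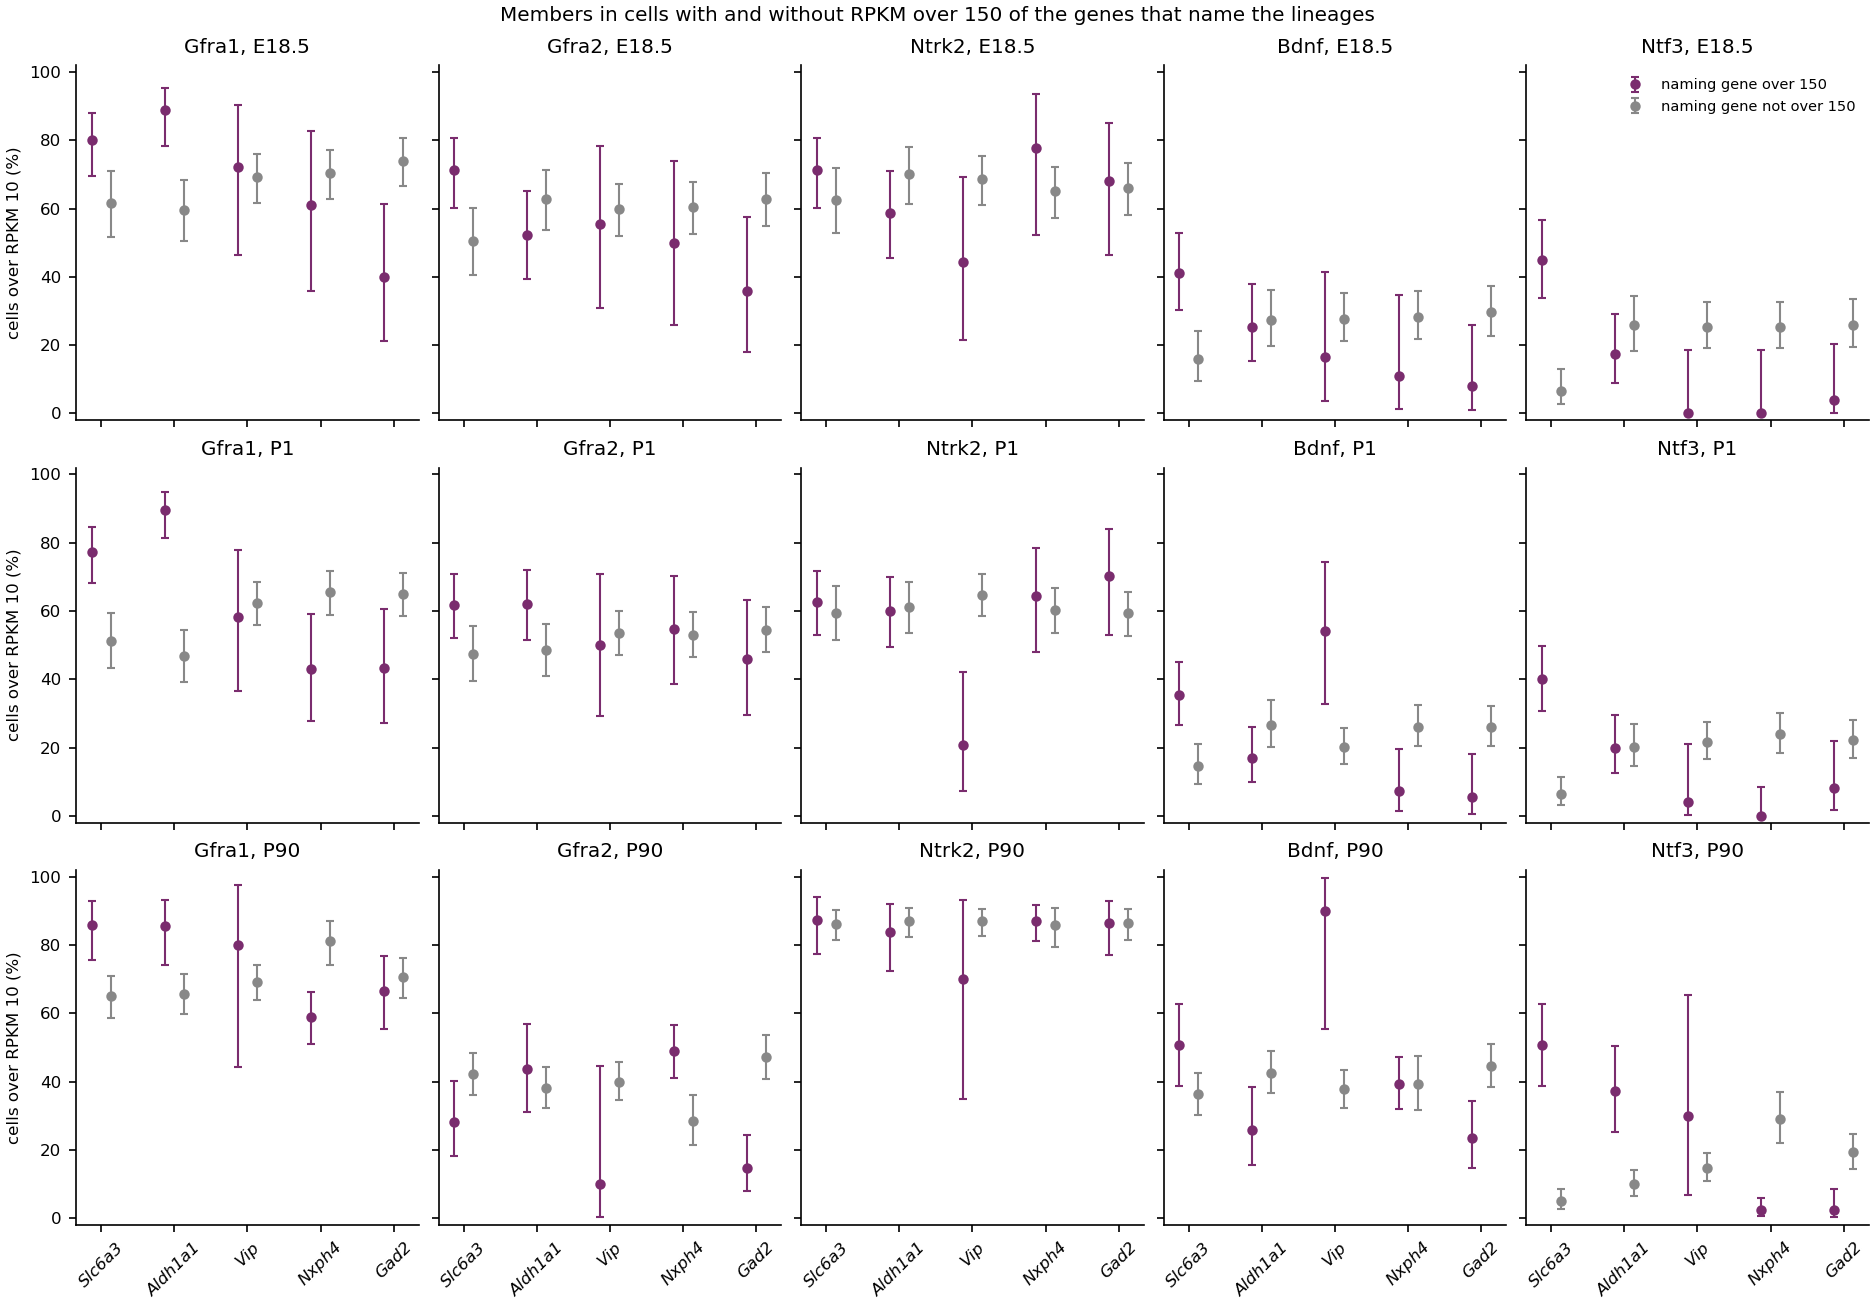
Share of heterozygous cells over RPKM 10 (per cent, vertical axis) of Gfra1, Gfra2, Ntrk2, Bdnf and Ntf3 at E18.5, P1 and P90 in cells with RPKM over 150 of the gene on the horizontal axis (purple) and in the other cells (grey), with exact 95% intervals. Ntf3 in Slc6a3-high cells lies above that in other cells in each row, and Ntrk2 is lowest in Vip-high cells at P1 (20.8%).

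Beyond the members, 51 other genes of these pathways were listed by role. Between E13.5 and P90, 46 of them were tested and 10 were at least 2-fold higher and 14 lower (21.7% and 30.4%, against 21% and 19.7% of all entries), with a median log2 ratio of −0.28. Gfra4, the co-receptor that prefers persephin, had the clearest course of the co-receptors, with a mean RPKM of 9.13 at E13.5 and 15.7 at E15.5, then 48.8 at E18.5 and 58.3 at P1, with 68.7 at P7 and 126.2 at P90, and 11.5% of cells over RPKM 10 at E13.5 and 92.3% at P90. At P90 it thus stood above Gfra1 (103.3) and Gfra2 (16.7) per gene length. Pcsk1, a prohormone convertase, was listed at 0 at E13.5 and had 32.04 RPKM at P90. Among genes with a mean of at least RPKM 5, the lowest ratios were those of Sorcs2, a sortilin-type receptor (27.9 to 4.17), the adaptor Gab2 (40.7 to 7.38) and the receptor phosphatase Ptprs (204.9 to 44.7).

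Other ligands were low throughout: mean RPKM was at most 2.86 for Nrtn, 1.43 for Artn, 1.62 for Pspn and 0.0613 for Ntf5. Ncam1, an alternative receptor of GDNF, had a mean of 520.4 to 679.6 RPKM from E13.5 to P7 and 194.4 at P90. Between genotypes at E13.5, 1 of 40 pathway genes was higher and 0 lower, against 4.41% and 4.61% of all entries. The gene was the adaptor Shc1, with 3.41 RPKM in homozygotes and 0.621 in heterozygotes, named after its values were seen. Spry1, a feedback inhibitor, had 5.24 and 2.24, and Manf, a trophic factor of the secretory pathway, 94.4 and 155.2, and neither passed 2-fold over all cells. Among Th-high cells 4 of 40 pathway genes were lower, Manf among them (75.2 and 162.4), and 2 higher, against 8.03% and 7.32% of entries. Among Th-low cells 6 of 42 were higher and 0 lower, against 12.3% and 9.12%. At P1, 1 of 44 was higher, Gas1, a GFRα-like protein, with 9.59 and 2.54, and 2 were lower, Shc1 with 1.81 and 5.06 and Traf6, a p75NTR partner named after its values were seen, with 1.14 and 3.43; of all entries 3.88% were higher and 3.45% lower. With spike-in cells only, 2 were higher, Gas1 among them (9.59 and 2.77), and 0 lower, with Shc1 at 1.81 and 2.69 and Traf6 at 1.14 and 1.60, against 8.24% and 2.35% of entries.

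The genes whose pattern was most like that of each member were ranked by Pearson r of log2(mean RPKM + 1) over 21 divisions of the 8 groups by Th level, among 14777 genes. The divisions of a group share its libraries, and the values are a description. Ret was most like Slc6a3 (r = 0.867), Kcnip4 (0.854) and Gm20700 (0.851). Gfra1 was most like Nhlh2 (0.904) and 5930412G12Rik (0.886), Gfra2 like Plekha7 (0.922), Rsph9 (0.898) and Ndrg1 (0.884), and Ntrk2 like Mboat7 (0.896), Agbl4 (0.880) and Rwdd2a (0.874). Ntrk3 was most like Gm6257 (0.867), Adck5 (0.859) and Rims2 (0.795), Ngfr like Gm27596 (0.845), Ccdc3 (0.799) and Tulp3 (0.798), Bdnf like Vwa5b1 (0.861), Phf1 (0.849) and 6430548M08Rik (0.814), and Ntf3 like 3930402G23Rik (0.820), Sv2c (0.819) and Casr (0.813).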

How the data were processed

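Single GFP-positive ventral midbrain cells were sequenced by Smart-seq2. The authors aligned reads with STAR to mm10 with eGFP and spike-in sequences and kept uniquely mapped reads. Per cell they deposited a read count and an RPKM value for each gene of Ensembl 69 (rpkmforgenes). RPKM was used for levels and shares, and counts for depth and thinning. Cells with over 100000 reads and at least 15% (P90 3.4%) of detectable entries (those seen in at least 1 cell) were kept; the other alignment limits of the methods were not used here. Cells were then clustered after the methods (igraph 0.11.9, scikit-learn 1.9.0), except that variable genes, there chosen against spike-in RNA, were ranked here by variation over a fitted curve, taking as many as the methods give, with 50 principal components. Spike-in entries were not used here. Then 160 cells of 3 clusters high in Olig1 and low in eGFP were left out. A ratio is log2 of (mean RPKM + 1), over entries that reached a mean of 1 in either group, and was called at 2-fold. Symbols were matched for 38129 entries. Groups followed the labels. Ratios and exact binomial intervals were checked on simulated cells (numpy 2.4.6, scipy 1.17.1). These cells were independent, with no plate, animal or spike-in differences, so that the check cannot speak to such differences. The Newcombe intervals were not checked in this way. The members, lists and limits were chosen with earlier results of these data known. Pathway genes named were the 3 with the largest ratio each way and a mean of at least RPKM 5, and ligands and receptors. Alternatives were other limits, pseudocounts, scalings, plates, thinning and Th levels. Some genes that these rules would name are not reported here.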

Additional observations from a re-analysis of the deposited data

Results flagged for a closer look

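Ngfr differed in direction between stages by Th level: the log2 ratio of Th-high over Th-low cells was 1.54 at E15.5, 1.01 at E18.5 and −1.50 at P1, and this difference between stages was not tested. Ngfr cells over RPKM 10 numbered 17 and 3 in Th-high and Th-low cells at E15.5, 3 and 1 at E18.5, and 6 and 5 at P1. Without plate P1_1 the P1 ratio was −0.57.

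The 160 cells left out for high Olig1 and low eGFP, all but 3 of them from P1 and P7, also held members. Ntrk2 was over RPKM 10 in 93.75% (88.8 to 96.96) of them, against 63.4% (59.1 to 67.6) of the 519 kept cells of these stages, with means of 95.8 and 22.6 RPKM. Ngfr was over RPKM 10 in 25.6% (19.1 to 33.1) of them, against 6.55% (4.58 to 9.03), and this came from P7: 38 of 87 cells left out there held Ngfr, while at P1 it was 2 of 47 in heterozygotes and 1 of 23 in homozygotes, against 5.60% and 8.81% of kept cells. In the same cells Ret was over RPKM 10 in 8.13%, Bdnf in 4.38% and Ntf3 in 0 of 160, which allows up to 1.88%. Median reads were 2046245 in the cells left out and 1608232 in those kept. The clusters of 46 and 81 cells left out had 5 and 6 of 6 astrocyte markers over RPKM 10 in most cells. They had 2 and 3 of 12 oligodendrocyte markers at that level. The cluster of 33 cells had 1 of 6 astrocyte and 6 of 12 oligodendrocyte markers.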

How the results depend on the processing

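Of 91 counts of members past 2-fold under an alternative, 81 were within 1.5 times the reported count. From E13.5 to P90 (3 as reported) the difference of mean log2 values gave 6, without Ntf3 and Ngfr. Between genotypes at E13.5 (1 as reported) Th-low cells gave 3; mean log2 differences again gave 1, but for Ret and not Bdnf. Between genotypes at P1 (0 as reported) the count was 1 without plate P1H_1 (Gfra1), 1 without the heterozygous cells of no named plate and 1 with spike-in cells only (both Ntf3), 1 in Th-high cells (Ngfr) and 1 in Th-low cells (Ntf3). By Th level at P1 (4 as reported) it was 7 when oligodendrocyte-like cells were left out one by one, 7 when none were left out, and 2 without plate P1_1; the cause of these moves was not tested. The counts by Th level at E13.5 ranged from 2 to 4 and at P90 from 2 to 3, and Ret alone of the members called passed under all of these alternatives at E13.5, and Ret and Ntf3 at P90. Of 684 ratios of these comparisons 615 kept their direction and side of the limit, 24 changed direction without passing it, 28 newly passed it and 15 no longer did. The other 2 changed direction and passed it, Gfra2 between genotypes at E13.5 (1.06) and Ntf3 at P1 (2.56), both in Th-low cells. All 72 shares stayed within their interval when cells were thinned to 100000 reads, 43 with RPKM over 1 and 17 with RPKM over 50 as the limit. Leaving out the cells with at least 3 non-neuronal markers was chosen after the data were seen, as was leaving out single plates in the other comparisons. There 52 ratios stayed past 2-fold, 11 no longer passed and 17 newly did, and Ntf3 between genotypes in P1 Th-low cells turned to −0.82 without plate P1H_2; the cause was not tested. No paired analysis was possible because no replicate, animal or litter is named for any cell. With 1 sample per group, differences between animals cannot be separated from those between stages or genotypes.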
